A study of Homo sapiens with 10 samples.

Results

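The nuclear receptor genes outside the NR3C group were examined by histone acetylation in a prostate cancer cell line and in its enzalutamide-resistant derivative. The NR3C group of steroid receptors was kept aside for comparison. The members were taken from a list of 43 gene symbols, all of which were found among the 20033 protein-coding genes of GENCODE release 44 on chromosomes 1 to 22, X and Y. No measured value was a criterion of the list, but it was chosen with earlier results of these data known. For each gene, the peaks within 1000 bp of the Ensembl canonical transcription start site (TSS) were taken as the promoter, and the peaks over the gene body with 50 kb to each side were taken as the locus.

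C4-2B is a human prostate adenocarcinoma cell line that grows without androgen. C4-2BER was derived from C4-2B by continuous exposure to enzalutamide, an antiandrogen drug, and the labels call it neuroendocrine-like. By the study's methods, C4-2BER was also kept in enzalutamide during culture, so ongoing drug exposure and the derived state cannot be told apart. Both are cultured lines, and C4-2BER is 1 resistant derivative, so what is shared by resistant cells and what is particular to this line cannot be told apart. ChIP-Seq was performed for histone H3 acetylated at lysine 27 (H3K27ac) and at lysine 18 (H3K18ac), marks of active promoters and enhancers, with 2 libraries per mark and line and 1 input library per line. The replicates were merged by the authors before peaks were called, so each of the 4 lists gives 1 pooled value per peak. No replicate error exists, no test was run, and every difference below is a description of these pools.

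The value of a promoter is the fold enrichment of its strongest peak over the local background, as the authors' peak caller gave it. A promoter was called increased when C4-2BER had a peak that C4-2B lacked or reached a ratio of 2 to it, and decreased in the opposite case. A site without a peak may still carry the mark below the caller's threshold, and the depth of the libraries is unknown. In a culture, a weaker pooled signal in every cell and a full signal in fewer cells cannot be told apart. The lists held between 68034 and 198451 peaks, and across all genes the H3K27ac promoters of C4-2BER had a median log2 ratio of -0.51 to those of C4-2B. That shift was -0.11 after a robust line fitted over shared regions was removed, so ratios of the receptors are read against the median of all genes.

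The labelled cell types were compared with marker genes. All 10 luminal prostate markers had an H3K27ac promoter peak in both lines. Of 10 neuroendocrine markers, 2 (SYP and ENO2) had a peak in both lines and 7 had none in either, so H3K27ac at most of these promoters went against the neuroendocrine-like label. The 6 stromal and immune markers had an H3K27ac promoter peak at COL1A1 only.

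Nuclear receptors are transcription factors that bind DNA through a zinc-finger domain, and most bind a small lipophilic ligand through a second domain. Many pair with a retinoid X receptor and read 2 copies of a short hexamer, the half-site, whose spacing helps to select the receptor. Retinoic acid, thyroid hormone, vitamin D and estrogen act through such receptors, the PPARs and LXRs sense fatty acids and oxysterols, and REV-ERBs and RORs act on the same elements within the circadian clock. Orphan members such as the COUP and testicular receptors have no agreed ligand and often repress the sites of other receptors.

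Upstream sequences are given for RARB, NR2F1 and ESR2, whose promoters were called, and for a region at ESR1, whose locus had the most increased H3K27ac regions. They were taken from RefSeq on GRCh38 as the 250 bases before the start and are written 5′ to 3′ on the strand of the gene. Capitals mark half-sites on either strand, either the consensus AGGTCA or its close variant AGTTCA or one of the forms with a guanine first, which are GGGTCA as well as GGTTCA, except in the promoter at the canonical TSS of RARB, where they mark the whole direct repeat of 2 half-sites with 5 bases between, the kind of element that retinoic acid receptors bind. RARB has that promoter at chr3:25428013-25428262 on the plus strand and another far upstream at chr3:24829071-24829320 on the plus strand. NR2F1 has its promoter at chr5:93582972-93583221 on the plus strand, and ESR2 at chr14:64294372-64294621 on the minus strand. The NR2F1 sequence lies outside its H3K27ac promoter peaks, which start at 93583759 in C4-2B and 93583841 in C4-2BER. The ESR2 sequence meets only the edge of its C4-2BER peak at chr14:64294618-64295100. The last sequence is a whole H3K27ac region upstream of ESR1 that was called in C4-2BER only, chr6:151633842-151634109 in GRCh38, written on the plus strand, where the capitals read AGGTCA on the other strand.
RARB canonical promoter: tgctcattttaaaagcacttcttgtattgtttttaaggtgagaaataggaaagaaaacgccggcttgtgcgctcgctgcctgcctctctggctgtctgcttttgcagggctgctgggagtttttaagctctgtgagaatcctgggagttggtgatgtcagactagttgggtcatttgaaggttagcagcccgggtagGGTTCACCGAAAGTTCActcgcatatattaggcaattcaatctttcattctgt
RARB far upstream promoter: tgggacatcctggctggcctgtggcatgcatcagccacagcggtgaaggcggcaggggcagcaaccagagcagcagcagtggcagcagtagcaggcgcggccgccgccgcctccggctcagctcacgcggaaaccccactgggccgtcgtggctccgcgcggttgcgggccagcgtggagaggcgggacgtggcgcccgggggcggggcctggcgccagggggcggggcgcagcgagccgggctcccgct
NR2F1 promoter: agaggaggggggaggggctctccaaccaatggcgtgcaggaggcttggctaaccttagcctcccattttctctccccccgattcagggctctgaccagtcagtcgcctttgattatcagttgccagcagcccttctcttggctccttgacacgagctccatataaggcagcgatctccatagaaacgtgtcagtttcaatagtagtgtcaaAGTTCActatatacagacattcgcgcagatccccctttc
ESR2 canonical promoter: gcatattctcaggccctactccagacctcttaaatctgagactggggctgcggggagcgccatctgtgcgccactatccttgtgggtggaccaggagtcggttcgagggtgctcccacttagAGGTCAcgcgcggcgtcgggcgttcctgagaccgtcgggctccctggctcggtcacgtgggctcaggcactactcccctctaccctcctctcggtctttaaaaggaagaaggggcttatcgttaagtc
ESR1 upstream region: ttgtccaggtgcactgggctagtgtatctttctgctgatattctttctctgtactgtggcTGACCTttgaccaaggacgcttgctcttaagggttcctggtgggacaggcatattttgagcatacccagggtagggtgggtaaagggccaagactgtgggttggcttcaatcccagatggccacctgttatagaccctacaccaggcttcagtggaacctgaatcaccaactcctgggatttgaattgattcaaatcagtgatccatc

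The direct repeat of RARB began at position -53 from its start. Such a repeat was found in 26 of 34943 RefSeq promoters of the same length, a share of 0.0744%, and among the 34 members with a RefSeq start within 100 bp of the canonical TSS it was found at RARB alone. At least 1 half-site was found in 13 of these 34 members, while 33.8% of all RefSeq promoters held one. The far upstream promoter of RARB held no half-site and had a GC content of 76.0%, against 46.0% at the canonical one. The cAMP response element TGACGTCA was found upstream of 2 members, NR2E1 and NR6A1, and in 1.63% of all promoters. These matches describe letters in a window of 250 bases and not binding.

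H3K27ac was found at the canonical promoters of most receptors in both lines. Of the 43 members, 25 had a promoter peak in both lines, 3 in C4-2BER only, 3 in C4-2B only and 12 in neither, a share without a peak of 27.9% against 28.2% of all genes. The promoters of NR1H3, ESR2 and ESRRB were increased, and 3.31% of all promoters were increased. The promoters of RARB, THRA, THRB, NR2E3, NR2F1, NR2F6 and NR5A1 were decreased, 7 members beside 8.01% of all promoters. With the line over shared regions removed, 3 members were increased and 4 decreased, in place of 3 and 7. Of all promoters, 3.63% were then increased and 3.2% decreased. A peak in 1 line only has no ratio to correct. The 3 increased members and 3 of the 4 decreased ones were such peaks and kept their call by construction. Among the 25 shared promoters the median log2 ratio was -0.49, close to the -0.51 of all genes. VDR and NR0B2 were the 2 of 25 with a higher value in C4-2BER, and both were chosen for mention after their values were seen.

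H3K18ac was more widely present than H3K27ac and differed less, as was also seen over all genes. It was found at 37 promoters in both lines, at 3 in C4-2B only and at neither line's promoter of NR1H4, NR1I3 and HNF4G. The share of members without a peak in either line was 6.98%, against 14.2% of all genes. No member was increased, with 2.1% of all promoters increased. The promoters of NR2F1, NR2E1, ESRRG and NR0B1 were decreased, 4 members beside 6.12% of all promoters. The median log2 ratio of the shared promoters was -0.33, against -0.34 for all genes. NR2F1 was the only member whose promoter was decreased in both marks.

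**Figure D1:**
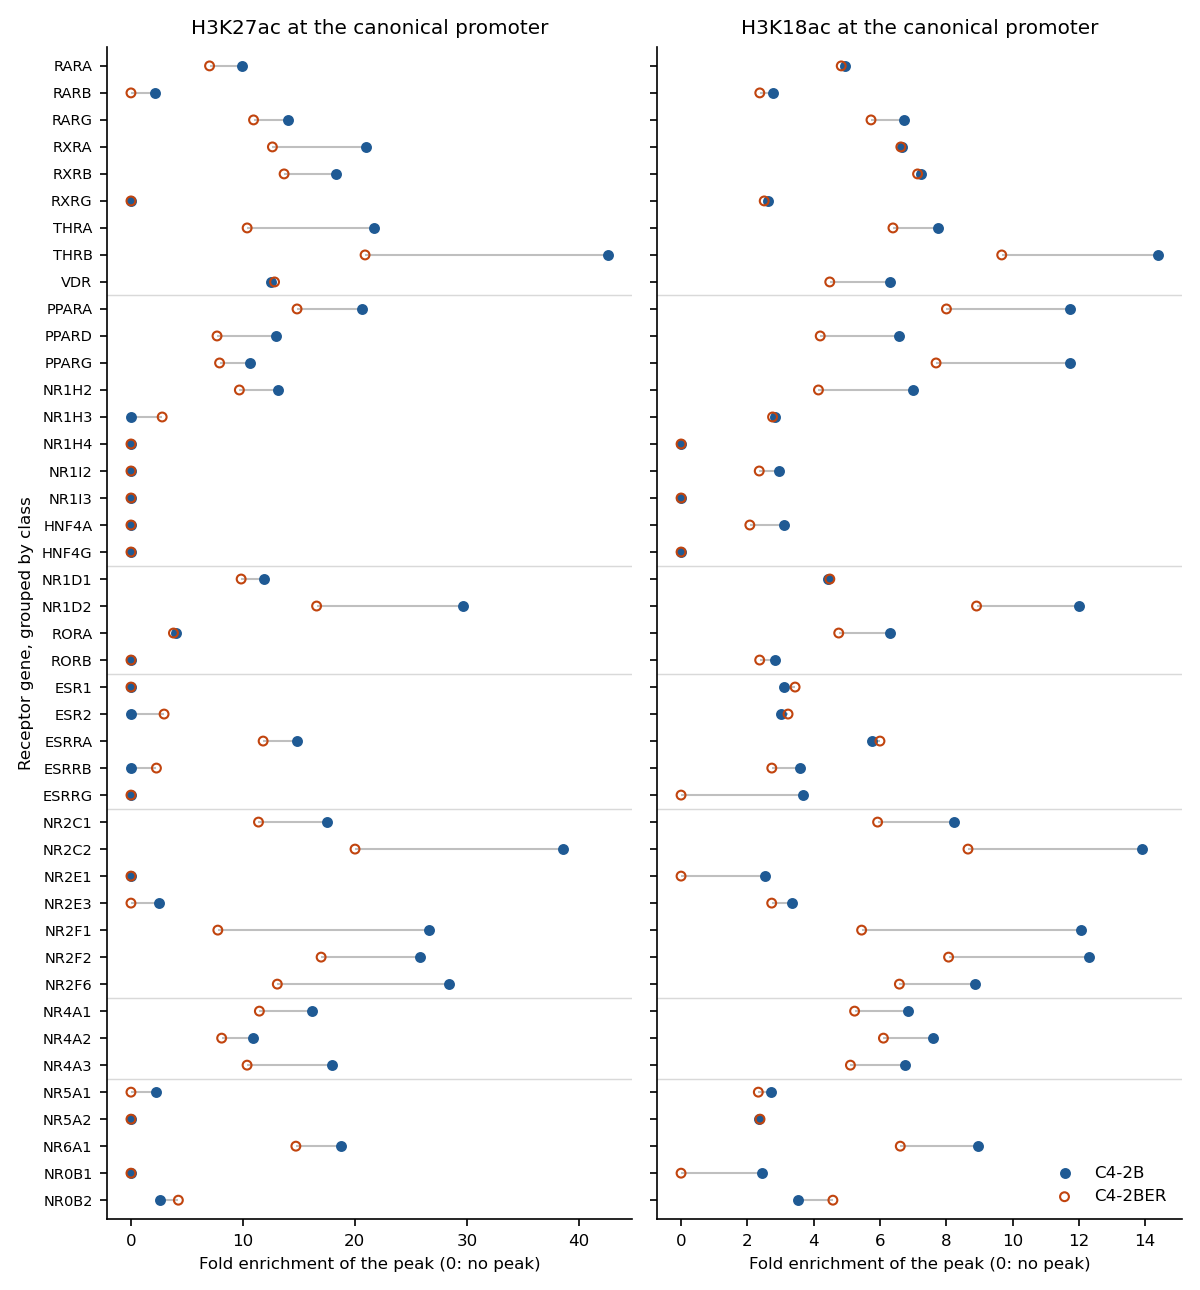
Fold enrichment of the strongest peak at the canonical promoter of each of the 43 receptors, with H3K27ac on the left and H3K18ac on the right; filled blue points are C4-2B, open red points are C4-2BER, 0 means that no peak was called, and horizontal lines part the classes. THRB and NR2C2 have the highest H3K27ac of C4-2B at 42.6 and 38.6, and 12 genes lie at 0 in both lines.

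Among the 9 retinoid, thyroid hormone and vitamin D receptors, 7 had H3K27ac at the promoter in both lines. These receptors bind as partners of the retinoid X receptors RXRA, RXRB and RXRG. THRB, a receptor of thyroid hormone, had the highest H3K27ac promoter of all members in each line, at 42.6 in C4-2B and 20.9 in C4-2BER, a log2 ratio of -1.03. Its peaks were of nearly equal width, 2486 bp in C4-2B and 2516 bp in C4-2BER. THRA, the other thyroid hormone receptor, stood at 21.7 in C4-2B and 10.4 in C4-2BER, where the peak was 5533 bp wide against 3092 bp. As the value is a mean over the peak, a wider peak can lower it. Both thyroid hormone receptors lost the call after the line over shared regions was removed, and both were unchanged in H3K18ac, at 14.4 and 9.67 for THRB and at 7.75 and 6.39 for THRA.

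RARB, a retinoic acid receptor that is often silenced in carcinomas and is itself induced by retinoic acid through the repeat shown above, had little H3K27ac at its canonical promoter. A weak peak of 2.14 was called in C4-2B and none in C4-2BER, and H3K18ac was 2.77 and 2.38. That H3K27ac peak ranked at percentile 0.70 of its list and did not pass a minimum of 5 on the −log10 q-value. RXRG, the retinoid X receptor with the most restricted tissue range, had no H3K27ac promoter peak in either line and similar H3K18ac of 2.64 in C4-2B and 2.51 in C4-2BER. VDR, the vitamin D receptor, was level at 12.5 in C4-2B and 12.8 in C4-2BER for H3K27ac, but its H3K18ac was 6.32 and 4.49. The other 4 members of this class, RARA, RARG, RXRA and RXRB, were unchanged in both marks. RXRA lay within an H3K27ac peak of 120004 bp in C4-2BER and 70185 bp in C4-2B, so its value averages over more than the promoter.

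Of the 10 lipid and xenobiotic sensors, 4 had strong H3K27ac promoters, 1 had a weak one and 5 had none. PPARA, PPARD, PPARG and NR1H2 (the oxysterol receptor LXRβ) had H3K27ac in both lines, between 10.6 and 20.6 in C4-2B, and none of them was called. PPARA, which drives fatty acid oxidation, was the fifth highest of C4-2BER at 14.8 beside 20.6 in C4-2B. NR1H3, the oxysterol receptor LXRα, had a peak of 2.79 in C4-2BER and none in C4-2B at the canonical TSS, but a peak of 2.88 in C4-2B lay just outside that window and the call was lost with 2000 bp on both sides. The bile acid receptor NR1H4, the xenobiotic receptors NR1I2 and NR1I3, and the hepatic factors HNF4A and HNF4G had no H3K27ac promoter peak in either line. NR1I2 and HNF4A still had H3K18ac of 2.97 and 3.12 in C4-2B and 2.36 and 2.07 in C4-2BER.

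Of the 4 clock receptors, NR1D1 and NR1D2 (the repressors REV-ERBα and REV-ERBβ) and RORA had H3K27ac promoters in both lines and none was called. NR1D2 was among the highest promoters of each line, at 29.6 in C4-2B and 16.6 in C4-2BER. RORA, an activator at the same elements, stood at 4.02 and 3.80. RORB had no H3K27ac promoter peak and H3K18ac of 2.82 in C4-2B and 2.37 in C4-2BER. The 13 clock genes around these receptors all had H3K27ac promoters in both lines, with 0 of them increased and 0 decreased.

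The estrogen and estrogen-related receptors differed from line to line at weak promoters. ESR2, the estrogen receptor β, had an H3K27ac peak of 2.96 in C4-2BER and none in C4-2B, and its H3K18ac was 3.23 and 3.00. ESRRB, an orphan receptor of pluripotent cells, had a narrow peak of 2.27 in C4-2BER only, while its H3K18ac was lower there, at 2.74 against 3.60. Both H3K27ac peaks lay under a 4-fold enrichment, and ESRRB did not pass a minimum of 5 on the −log10 q-value. ESR1, the estrogen receptor α, had no H3K27ac promoter peak in either line and H3K18ac of 3.12 in C4-2B and 3.44 in C4-2BER. ESRRG had no H3K27ac promoter peak, and its narrow H3K18ac peak of 3.67 was called in C4-2B only. ESRRA, which acts on mitochondrial genes, was the 1 member of this class with a strong promoter, at 14.8 in C4-2B and 11.8 in C4-2BER.

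The 7 testicular, tailless and COUP receptors are orphans, and their shared promoters had the lowest median H3K27ac ratio of any class, -0.95 on the log2 scale over 5 genes. This ranking is of values as deposited, without the line over shared regions removed. The class also had the highest median H3K27ac promoter in C4-2B, at 26.2 against 15.5 over all members. NR2F1 (COUP-TFI), a repressor that also guides neural and cardiac development, had the lowest ratio of the receptors with peaks in both lines. Its H3K27ac was 26.6 in C4-2B and 7.76 in C4-2BER, a log2 ratio of -1.78, and its H3K18ac was 12.1 and 5.45. The H3K27ac peaks had similar widths, 2282 bp and 2066 bp. The H3K27ac call was kept under every setting that compares values, the line over shared regions and the GC bins included. The window of 2000 bp upstream to 500 bp downstream reaches neither of these H3K27ac peaks nor the H3K18ac peak of C4-2B. The H3K27ac call there came from a region just upstream. The H3K18ac call was lost with that line, with the GC bins and with the window of 2000 bp upstream to 500 bp downstream, and the log2 ratio turned to 0.47 for the mean over the window, where the peak of C4-2BER was 3137 bp wide against 2322 bp.

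NR2F6 (EAR2) stood at 28.4 in C4-2B and 13.1 in C4-2BER, but the peak of C4-2BER was 16503 bp wide against 9909 bp, and over the merged region the values were 22.4 and 13.1. NR2F2 (COUP-TFII), the closest relative of NR2F1, was unchanged at 25.8 and 17.0 for H3K27ac and at 12.3 and 8.07 for H3K18ac. NR2C2 (TR4) was the second highest of the members in each line, at 38.6 in C4-2B and 20.01 in C4-2BER, just short of the 2-fold ratio. NR2E3, a photoreceptor factor, had a weak H3K27ac peak of 2.52 in C4-2B only. NR2E1 (TLX), a neural stem cell repressor, had no H3K27ac promoter peak and an H3K18ac peak of 2.54 in C4-2B only. NR2C1 was unchanged in both marks.

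The 3 immediate-early receptors NR4A1, NR4A2 and NR4A3, which are induced within minutes by many stimuli, were unchanged in both marks, with H3K27ac between 10.9 and 17.98 in C4-2B and between 8.10 and 11.5 in C4-2BER. In the last class, NR5A1 (SF-1), the regulator of steroid synthesis in adrenal and gonad, had a weak peak of 2.22 in C4-2B only. NR5A2 (LRH-1) had no H3K27ac promoter peak and level H3K18ac of 2.36 in C4-2B and 2.38 in C4-2BER. NR0B1 (DAX-1) had no H3K27ac promoter peak, and its H3K18ac peak of 2.43 was called in C4-2B only. NR0B2 (SHP), a corepressor without a DNA-binding domain, was higher in C4-2BER for both marks, at 4.23 against 2.59 for H3K27ac and 4.58 against 3.53 for H3K18ac, without reaching a 2-fold ratio. NR6A1 was unchanged in both marks.

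**Figure D2:**
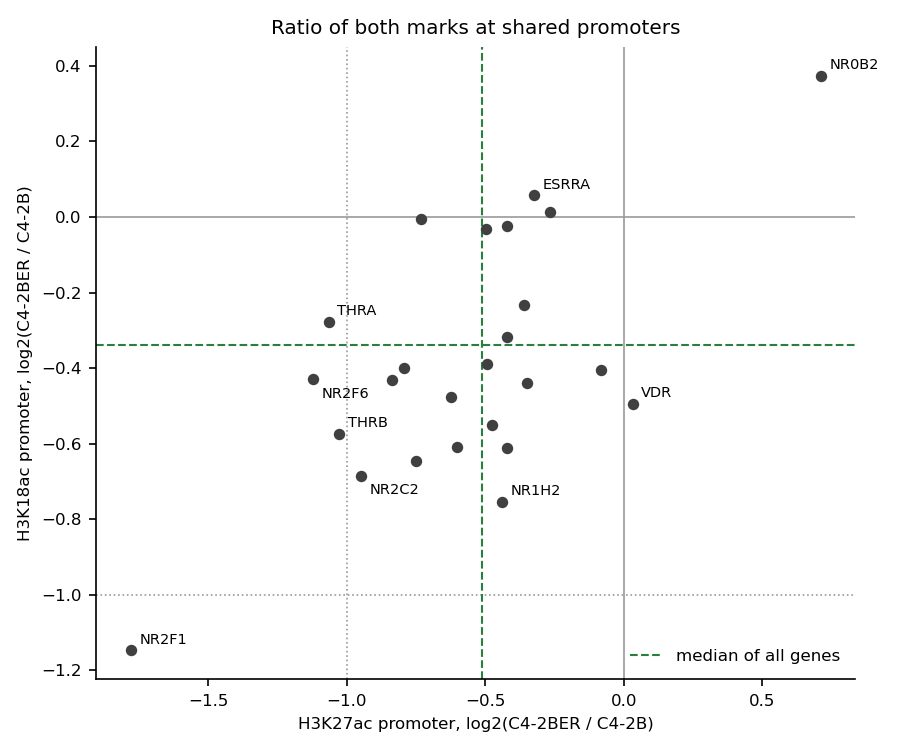
Log2 ratio of C4-2BER to C4-2B at the promoter for H3K27ac (horizontal axis) and H3K18ac (vertical axis), 1 point per receptor with peaks of both marks in both lines; green dashed lines are the medians of all genes and dotted lines a 2-fold decrease. Points gather around the medians of all genes, at -0.51 and -0.34, with NR2F1 at -1.78 and -1.15 and NR0B2 at 0.71 and 0.37.

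Many receptor genes have several start sites, and the canonical TSS was not always the most acetylated. The 169 groups of annotated starts were therefore compared. In 11 members another group had more H3K27ac than the canonical group. Of the 12 members without H3K27ac at the canonical promoter, 3 (NR1I2, HNF4G and ESRRG) had a peak at another start and 9 had none at any start. RARB had its strongest H3K27ac 598.9 kb upstream of the canonical group, at the promoter of 4 annotated transcripts whose sequence is given above. There H3K27ac was 23.4 in C4-2B and 5.31 in C4-2BER, a log2 ratio of -2.14, and H3K18ac was 10.3 and 5.57, a ratio of -0.89. HNF4G likewise had a strong peak 131.8 kb upstream, at 28.9 in C4-2B and 14.2 in C4-2BER for H3K27ac and at 12.1 and 6.73 for H3K18ac.

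ESR2 was increased at its canonical start but had a much stronger promoter 43.7 kb upstream, where H3K27ac was 22.9 in C4-2B and 15.3 in C4-2BER. The increase therefore concerned the weaker of the 2 starts, and ESR2 was not called when every annotated start was used. ESRRG had its strongest start 366.2 kb away from the canonical group, at 11.7 in C4-2B and 7.85 in C4-2BER. The starts of RARA show how the calling of broad peaks enters such values. A start 32.2 kb downstream stood at 21.6 in C4-2B, and at 6.99 in C4-2BER within 1 wide peak, while neighbouring starts at the edges of the same domain appeared higher in C4-2BER.

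**Figure D3:**
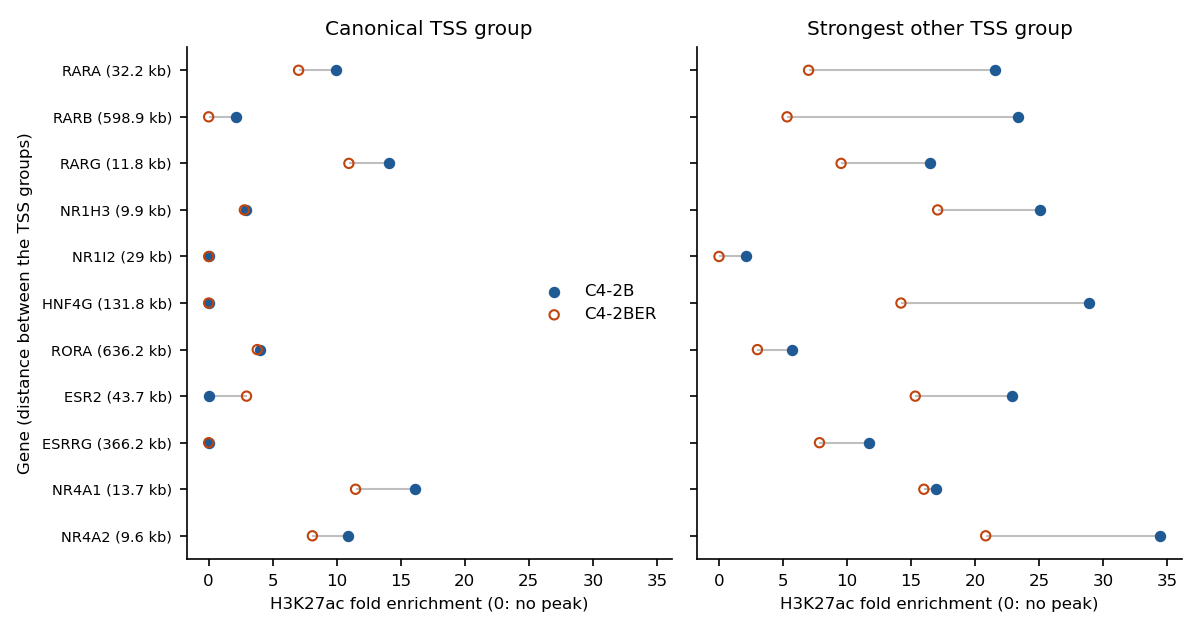
H3K27ac fold enrichment at the canonical group of starts (left) and at the strongest other group (right) for the 11 receptors in which the latter was higher, with the distance between the groups beside each name; filled blue points are C4-2B, open red points are C4-2BER and 0 means no peak. The upstream start of RARB stands at 23.4 in C4-2B and 5.31 in C4-2BER, while its canonical group is at 2.14 and 0.

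Over the loci, peaks of both lines were merged into regions, each with the length-weighted mean of its peaks. The loci held 433 distinct H3K27ac regions, of which 115 were increased (26.6%), 104 decreased (24%) and 214 unchanged. Among all regions of the list, 30.5% were increased and 22.7% decreased. For H3K18ac there were 1108 distinct regions with 263 increased (23.7%) and 266 decreased (24%), while all regions had 26.2% increased and 23.5% decreased. Under the main settings, the shares over all loci thus lay near those of all regions. With the filters on weak peaks, some shares lay further apart, as given in the last section. Nearly all of the changed regions were called in 1 line only, 110 of the 115 increased and 90 of the 104 decreased H3K27ac regions, and most were weak, with medians of 2.41 and 2.60. Decreased H3K27ac regions had a median GC content of 56.7% and increased ones of 51.4%, a difference also seen over all regions at 55.2% and 49.6%. With ratios centred within GC bins, 119 were increased and 96 decreased. The loci of NR1D1 and THRA shared 9 H3K27ac regions, and those of NR5A1 and NR6A1 shared 4. A locus also holds regions of neighbouring genes.

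**Figure D4:**
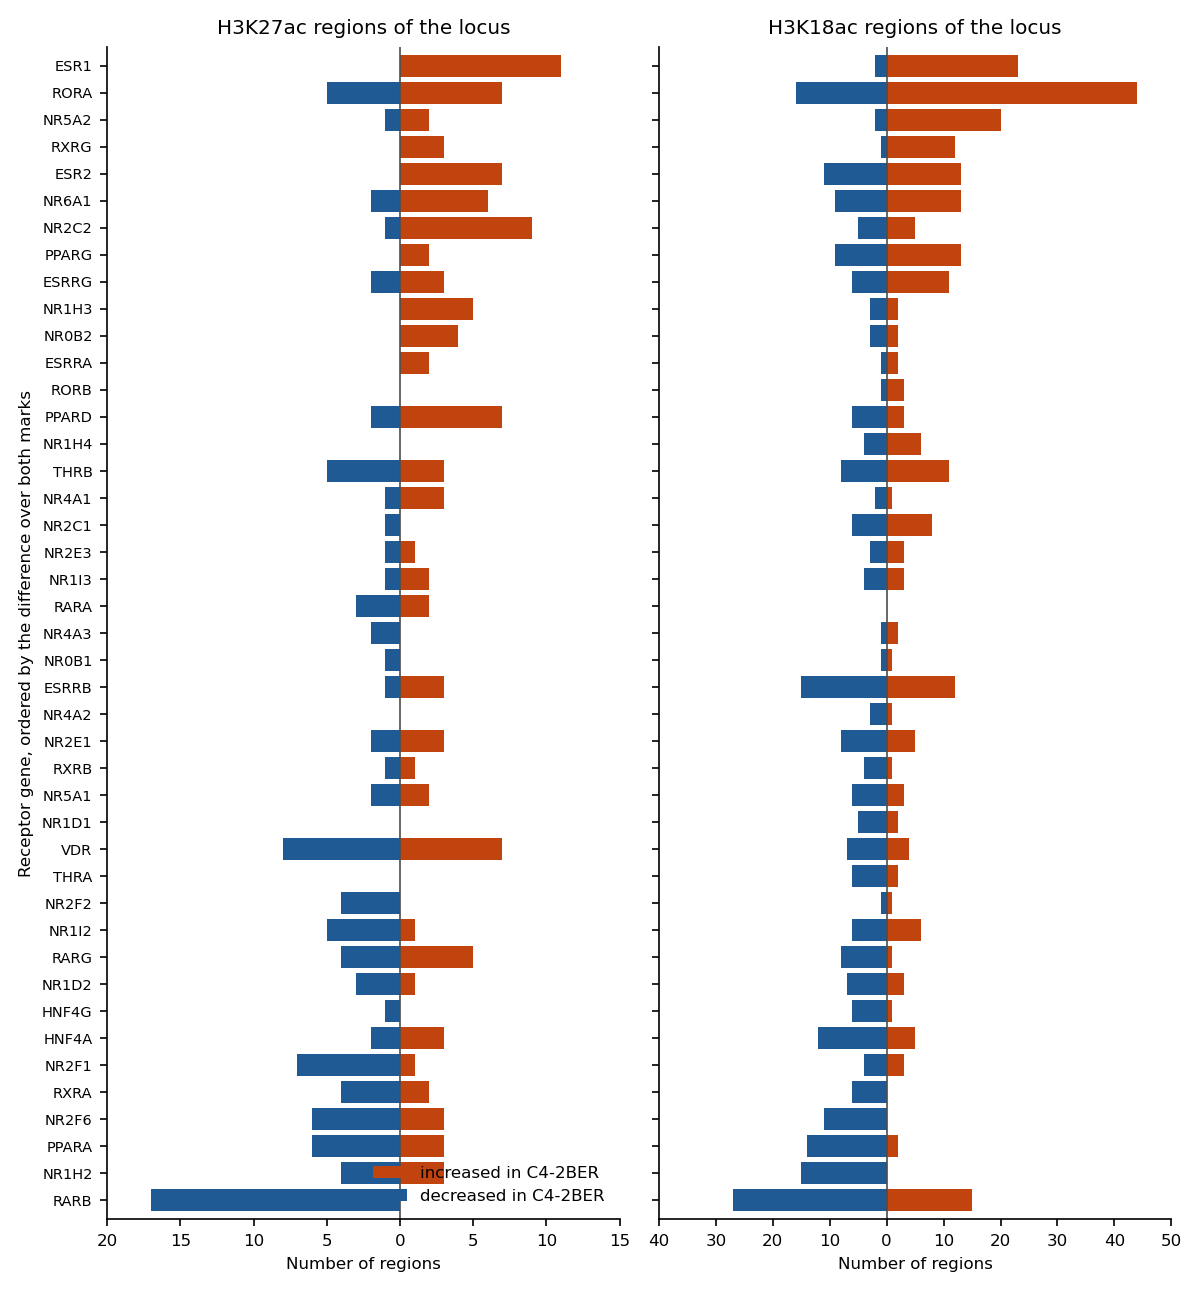
Number of increased (red, to the right) and decreased (blue, to the left) regions in the locus of each receptor for H3K27ac (left) and H3K18ac (right), ordered by the difference summed over both marks. ESR1 and RORA stand at the top with differences of 32 and 30, and RARB at the bottom with 17 decreased and 0 increased H3K27ac regions. Longer loci can hold more regions, and those of ESR1, RORA and RARB span 573, 841 and 1010 kb.

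Among the receptor loci with at least 10 H3K27ac regions, RARB had the highest share called in 1 direction. Of its 19 regions, 17 were decreased (89.5%) and 0 increased, and RARB was among 9 of 8489 genes with at least 10 regions whose share was that high. C4-2B had 16.2 kb of H3K27ac over this locus of 1010 kb and C4-2BER had 2.46 kb. The strongest decreased region was the far upstream promoter, and next to it a region at chr3:24837838-24839953 stood at 7.53 in C4-2B and had no peak in C4-2BER. The others were weaker and lay before that promoter, between both promoters and in introns behind the canonical start, with a median of 2.87 over all 17. H3K18ac was also lower at most of these regions, but mostly short of a 2-fold ratio. It was called in both lines at 13 of the 17 and was lower in C4-2BER at all 13, with a median log2 ratio of -0.42 and a lowest of -0.89. Of the other 4, 1 had H3K18ac in C4-2B only and was thus decreased in both marks, 1 had it in C4-2BER only and 2 had none. Over its whole length, the H3K18ac of the locus covered 54.2 kb in C4-2BER and 53.8 kb in C4-2B. Among all decreased H3K27ac regions of the genome, 22.1% overlapped a decreased H3K18ac region. Of the 76 H3K18ac regions of the locus, 27 were decreased (35.5%) and 15 increased (19.7%), against 23.5% and 26.2% of all H3K18ac regions.

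The ESR1 locus was the reverse. Of its 15 H3K27ac regions, 11 were increased (73.3%) and 0 decreased, and ESR1 was among 62 of the 8489 genes whose share was that high. Here both marks moved together, with 8 of the 11 increased regions also increased in H3K18ac, while the share among all increased H3K27ac regions was 26.7%. Of the 48 H3K18ac regions, 23 were increased (47.9%) and 2 decreased (4.17%), against 26.2% and 23.5% of all H3K18ac regions. A region upstream of the canonical start at chr6:151753125-151753762 had H3K27ac of 9.19 in C4-2BER and no peak in C4-2B, with H3K18ac of 6.98 and 3.20. An intronic region at chr6:152089640-152092290 stood at 5.02 in C4-2B and 11.1 in C4-2BER for H3K27ac. The region printed above, upstream of the gene, stood at 3.43 for H3K27ac and 3.19 for H3K18ac in C4-2BER, with no peak of either mark in C4-2B. Its single half-site is a common feature, since 61.4% of 7480 H3K27ac regions of at most 300 bp held at least 1. None of these regions lay at the canonical promoter, which had no H3K27ac peak in either line.

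At NR2F1 the decrease in H3K27ac extended beyond the promoter. Of the 8 H3K27ac regions of its locus, 7 were decreased, while 22.7% of all H3K27ac regions were. The locus held fewer than the 10 regions needed for a rank among genes. Most of the 7 decreased regions were weak, with a median of 2.58 in C4-2B over all 7. The stronger ones outside the promoter lay just upstream at chr5:93578331-93582196 and downstream of the gene at chr5:93620657-93621675. The former stood at 9.24 in C4-2B and 4.53 in C4-2BER, the latter at 12.4 and 4.25. The 1 increased region, at chr5:93634048-93635734, was weak at 2.47. H3K18ac was decreased at 2 of these 7 regions, and of the 13 H3K18ac regions of the locus 4 were decreased, 3 increased and 6 unchanged.

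**Figure D5:**
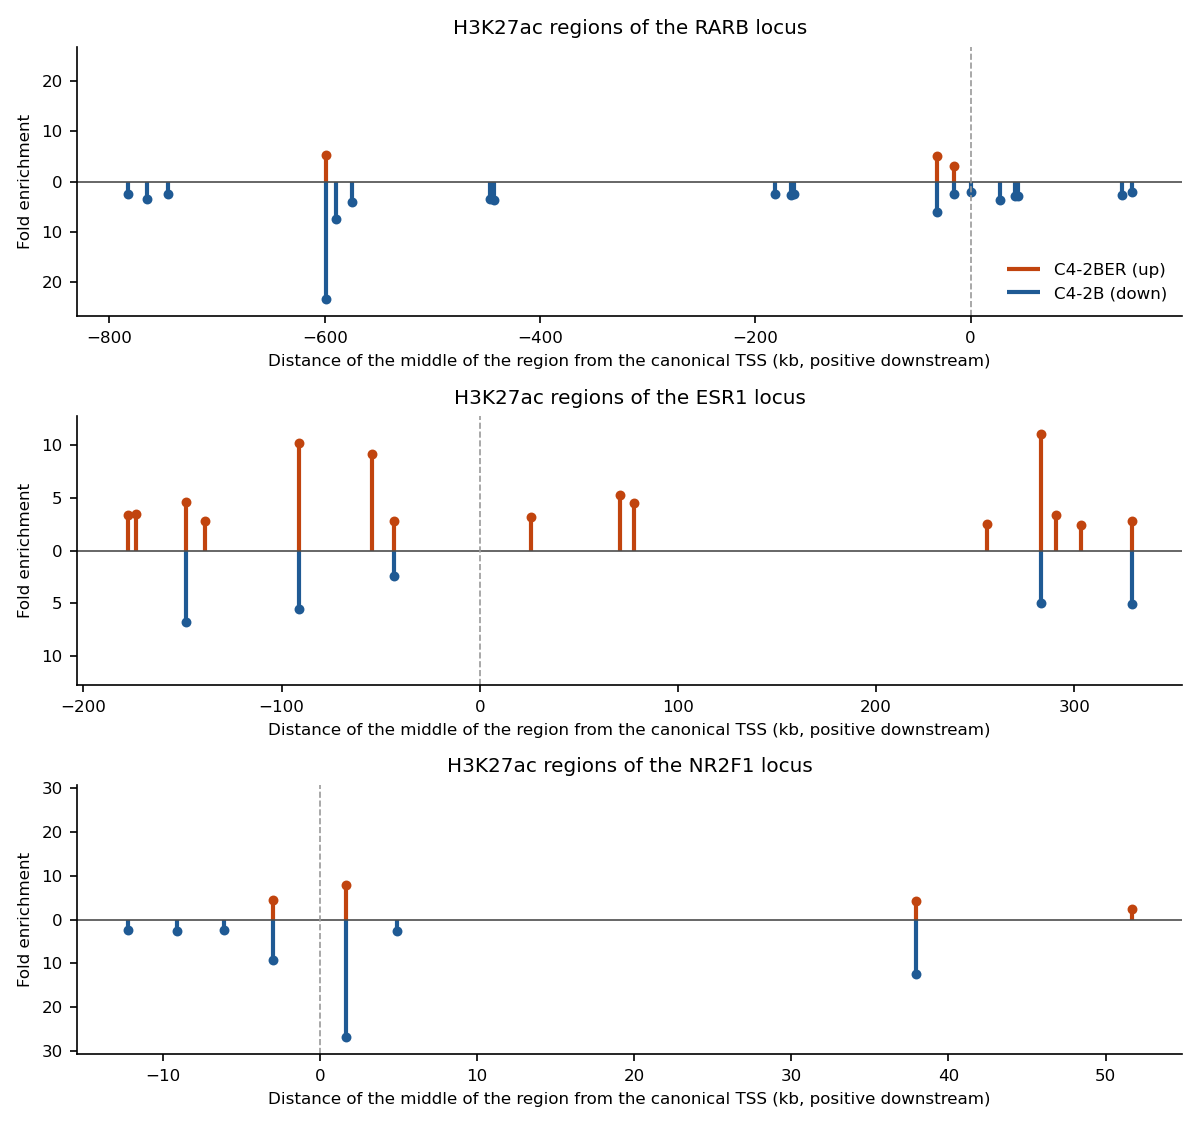
H3K27ac regions of the RARB, ESR1 and NR2F1 loci by the distance of their middle from the canonical TSS in kb; red lines upwards give the fold enrichment in C4-2BER and blue lines downwards that in C4-2B, and no line means no peak. Regions called decreased, by absence or a 2-fold ratio, number 17 of 19 in RARB and 7 of 8 in NR2F1, and 11 of 15 in ESR1 were called increased.

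Other loci with large differences owed them mainly to weak H3K18ac regions. Over all H3K18ac regions, 26.2% were increased and 23.5% decreased. RORA had 44 increased and 16 decreased H3K18ac regions of 95, with a median of 2.34 among the increased. Its H3K27ac regions were 7 increased and 5 decreased of 17, while 30.5% and 22.7% of all H3K27ac regions were. Of those 7 increased regions, 5 were also increased in H3K18ac, while 26.7% of all increased H3K27ac regions were. Among the 5 was an intronic region at chr15:61085058-61085845 with H3K27ac of 4.93 and H3K18ac of 5.01 in C4-2BER and no peak in C4-2B. NR5A2 had 20 increased and 2 decreased H3K18ac regions of 42, and RXRG 12 and 1 of 26. Among 15807 genes with at least 10 H3K18ac regions, 915, 801 and 961 reached the increased shares of RORA, NR5A2 and RXRG. In the RXRG locus 3 of 5 H3K27ac regions were increased, the strongest in an intron at chr1:165421435-165422213 with 4.24 in C4-2BER and no peak in C4-2B. At NR5A2 an intronic region at chr1:200159730-200160343 was called in C4-2BER only, at 4.13 for H3K27ac and 3.87 for H3K18ac.

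Decreased H3K18ac regions prevailed at NR1H2 with 15 of 26, at PPARA with 14 of 28 and at NR2F6 with 11 of 21, and these loci had 0, 2 and 0 increased ones. Among 15807 genes with at least 10 H3K18ac regions, 499, 1249 and 865 reached these decreased shares, and the median share was 25%. The H3K18ac of the NR1H2, PPARA and NR2F6 loci covered 24.1, 76.2 and 27.3 kb in C4-2BER and 50.4, 112 and 60.5 kb in C4-2B. At NR2F6, 5 of 6 decreased H3K27ac regions were decreased in both marks, against 22.1% over all regions decreased in H3K27ac. The highest of these 6 stood at 2.64 in C4-2B. NR2C2 had the most increased H3K27ac regions after ESR1, 9 of 16 with 1 decreased, although its promoter stood lower in C4-2BER. That increased share was reached by 342 of 8489 genes with at least 10 H3K27ac regions. The 9 increased regions had a median of 2.31 and the strongest, upstream at chr3:14933738-14935690, stood at 5.09.

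Genes that work with the receptors were compared at their canonical promoters, where 3.31% of all genes were increased and 8.01% decreased in H3K27ac. Of 20 coregulators, 18 had H3K27ac in both lines, 0 were increased and 3 were decreased: the coactivator NCOA1 at 26.2 in C4-2B and 11.6 in C4-2BER, the corepressor subunit TBL1XR1 at 16.5 and 6.77, and the PPAR coactivator PPARGC1B at 34.3 and 14.3. ZNF366 had an H3K18ac peak of 2.71 in C4-2BER only. Among 16 genes of retinoid supply and clearance, CYP26A1, the enzyme that degrades retinoic acid, was increased with an H3K27ac peak of 4.02 in C4-2BER and none in C4-2B, while its H3K18ac was level at 4.24 and 4.10. CYP26C1 had an H3K18ac peak of 2.28 in C4-2B only. Of 18 receptor target genes, 3 were increased in H3K27ac and 0 decreased, counts too small to be read against those shares. These were the progesterone receptor PGR, a target of estrogen receptors, at 2.41 in C4-2B and 6.64 in C4-2BER, and the bile acid target FGF19 and the vitamin D target CYP24A1 with peaks of 2.17 and 2.49 in C4-2BER only. In the NR3C group, the mineralocorticoid receptor NR3C2 was decreased, at 18.7 in C4-2B and 7.70 in C4-2BER, PGR was increased and NR3C1 was unchanged.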

How the data were processed

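The ChIP-Seq data of both marks were used as 4 deposited broad peak lists, 1 per mark and line. Per the labels and the study's methods, the authors trimmed and aligned the reads (bowtie2, GRCh38), filtered duplicates, poor alignments and the blacklist, pooled the replicates of each mark and line, and used macs2 for peak calling. The submitters' processing notes name Bowtie2 2.2.3 and Trimmomatic 0.33. Each deposited peak carries a fold enrichment (a ratio to the local background of its own list) and a −log10 q-value. Read counts, ATAC-seq and RNA-seq were not used here, so depth is unknown.

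Promoter values were the highest fold enrichment within 1000 bp of the Ensembl canonical TSS of GENCODE release 44, and loci were gene bodies with 50 kb to each side. Overlapping peaks of both lines were merged into regions. A ratio of 2 or presence in 1 line made a call. The members, lists and rules were chosen with earlier results of these data known. The text names members with a called promoter, those without an H3K27ac promoter peak, the 5 highest promoters of each line, the 8 loci with the largest difference and the called genes of the lists. VDR, NR0B2 and members named only as unchanged were added after their values were seen. No test was run, since each value is a pool. Results were recomputed under 10 other settings of thresholds, windows and scaling, and 2 more chosen after seeing the data. Results for some genes of the comparison lists are left out of this text. Scripts were tested on simulated data. Python 3.11.15 with numpy 2.4.6, pandas 2.3.3, statsmodels 0.14.6 and matplotlib 3.10.9 was used.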

Additional observations from a re-analysis of the deposited data

How the results depend on the processing

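No paired analysis was possible because the authors merged the replicates before peak calling and no result comes from a test. For the same reason no replicate could be left out. The counts of called promoters and regions were recomputed under each alternative and are named here where they moved by over 1.5 times. With weaker peaks than a 4-fold enrichment left out, the increased H3K27ac promoters came to 1 in place of 3, the decreased H3K18ac promoters to 1 in place of 4 and the increased H3K18ac promoters to 1 in place of 0. The shares of all promoters were then 1.93%, 6.12% and 1.62%, against 2.33% of members in each case. The increased and decreased regions then came to 30 and 32 for H3K27ac, in place of 115 and 104, and to 27 and 32 for H3K18ac, in place of 263 and 266. For H3K27ac this was 16.5% and 17.6% of the member regions, against 19.9% and 19.3% of all regions. For H3K18ac it was 14.6% and 17.3%, against 19.1% and 24.2%. With a minimum of 5 on the −log10 q-value, the decreased H3K27ac promoters came to 4 in place of 7, the decreased H3K18ac promoters to 2 and the increased H3K18ac promoters to 2. These were 9.3%, 4.65% and 4.65% of members, against 6.74%, 3.62% and 2.4% of all promoters. The regions came to 46 and 38 for H3K27ac and to 85 and 39 for H3K18ac. For H3K27ac this was 20.1% and 16.6% of the member regions, against 28.4% and 14.9% of all regions. For H3K18ac it was 27.2% and 12.5%, against 34.2% and 12.7%. Both settings remove weak peaks by construction. With the rescaling by a robust line, and also with the log2 ratio centred within 20 GC bins, the decreased H3K27ac promoters came to 4, and by presence alone to 3. Peaks in 1 line only keep their call in these 3 settings by construction, in which 3.2%, 2.75% and 2.28% of all promoters were decreased. THRA, THRB and NR2F6 lost the call in all 3, and NR2F1 by presence alone. With every annotated TSS the increased H3K27ac promoters came to 1, since ESR2 and NR1H3 have stronger starts elsewhere that were unchanged. Of all promoters, 3.48% were then increased. With 2000 bp upstream to 500 bp downstream, the H3K18ac promoters came to 1 increased and 2 decreased, beside 2.2% and 6.01% of all promoters. The mean over the window gave 2 increased H3K18ac promoters, beside 3.59% of all promoters. With this mean, the log2 ratio of NR2F1 in H3K18ac turned to 0.47 from -1.15. With 10 kb to each side of the gene, H3K27ac had 69 increased and 56 decreased regions and H3K18ac had 161 decreased ones, as fewer regions were counted. These were 28%, 22.8% and 22.4% of the regions counted, against 30.5%, 22.7% and 23.5% of all regions. Equal numbers of peaks, the window of 2000 bp on both sides and the stricter overlap moved no count by more than 1.5 times. The unknown depth limits what the absence of a peak shows.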
